A study of Homo sapiens with 2 samples.

Results

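The RASSF (RAS-association domain family) tumour suppressor genes RASSF1 to RASSF10 were examined at single-CpG resolution in the DNA methylomes of 2 human acute myeloid leukemia (AML) cell lines. The members were the 10 genes that carry these names, of 20163 protein-coding gene entries in the annotation, and their CpGs were those within 2000 bp of an annotated transcription start site (TSS) or inside the gene on GRCh37 (hg19). This gave 7742 CpG dinucleotides of the 28217448 listed, 2769 near a TSS and 4973 in gene bodies. TSSs of a gene lying within 500 bp of each other were joined, which left 35 TSS groups, and a gene body was the annotated gene without the CpGs within 2000 bp of any of its TSSs.

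Whole-genome bisulfite sequencing was available for OCI-AML3, which carries a heterozygous missense mutation in the catalytic domain of the DNA methyltransferase DNMT3A, and for AML5 (also named OCI-AML5), in which DNMT3A is wild type. Bisulfite turns unmethylated cytosines into uracil, read as thymine, so that the share of calls still read as cytosine is the methylation level of a CpG. Both lines were grown in DMEM with serum, and each was sequenced as 1 library. They come from different patients and are not derived from each other, so the DNMT3A genotype cannot be told apart from any other difference between the lines.

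RASSF proteins share a domain that binds RAS-like GTPases. The classical members RASSF1 to RASSF6 carry it near the C terminus, followed by a SARAH domain through which they bind the Hippo kinases MST1 and MST2, whereas the N-terminal members RASSF7 to RASSF10 carry it near the N terminus and lack the SARAH domain. Several members, RASSF1 above all, are known for promoter CpG islands that are unmethylated in normal tissue and methylated and silent in many tumours.

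The sequences below, read from the GRCh37 genome, are those that carry the main contrasts, printed 5′ to 3′ on the strand of the gene with every CG in capitals. The first is the part nearest the gene of the longest stretch of consecutive differing CpGs, upstream of the first RASSF5 TSS (chr1:206680212-206680511, plus strand, before the start of the gene model). It was chosen from its values, so that all 33 CpGs differ by the choice. The median level of these CpGs was 2.11% in OCI-AML3 (range 0–22.7%) and 92.9% in AML5 (29.8–100%).
RASSF5: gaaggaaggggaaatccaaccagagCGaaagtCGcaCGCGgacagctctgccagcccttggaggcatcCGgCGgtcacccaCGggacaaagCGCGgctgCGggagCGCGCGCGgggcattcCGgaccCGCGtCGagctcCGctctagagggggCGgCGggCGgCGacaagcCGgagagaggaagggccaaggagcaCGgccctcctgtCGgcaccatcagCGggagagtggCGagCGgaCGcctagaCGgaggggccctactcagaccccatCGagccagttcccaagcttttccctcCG
The second lies inside the coding sequence of RASSF10 exon 1 (chr11:13032129-13032428, plus strand), was likewise chosen after its values were seen, and has 22 CpGs with a median of 18.2% in OCI-AML3 and 76.6% in AML5.
RASSF10: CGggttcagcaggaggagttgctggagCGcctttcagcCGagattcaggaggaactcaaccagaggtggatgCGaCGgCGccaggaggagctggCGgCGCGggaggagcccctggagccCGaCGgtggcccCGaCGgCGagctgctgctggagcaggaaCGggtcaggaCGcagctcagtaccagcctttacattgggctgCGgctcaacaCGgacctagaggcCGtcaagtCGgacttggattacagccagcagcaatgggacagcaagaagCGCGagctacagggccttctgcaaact
The RASSF1 sequence precedes a start site at which both lines were unmethylated. It (chr3:50378412-50378711, minus strand) has 19 CpGs with a median of 0% in each line and no CpG above 2.5% in OCI-AML3 or 5.56% in AML5.
RASSF1: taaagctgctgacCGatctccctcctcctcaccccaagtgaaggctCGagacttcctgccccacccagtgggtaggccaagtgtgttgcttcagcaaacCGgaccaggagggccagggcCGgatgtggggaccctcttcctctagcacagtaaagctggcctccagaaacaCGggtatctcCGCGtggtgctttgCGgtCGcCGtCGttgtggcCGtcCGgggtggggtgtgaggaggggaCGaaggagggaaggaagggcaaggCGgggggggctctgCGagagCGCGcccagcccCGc
RASSF9 is shown because its start site is poor in CpGs and came next after RASSF5 in the size of its difference. The 300 bases upstream of its TSS (chr12:86230188-86230487, minus strand) hold 5 CpGs, with a median of 5.56% in OCI-AML3 and 30.8% in AML5.
RASSF9: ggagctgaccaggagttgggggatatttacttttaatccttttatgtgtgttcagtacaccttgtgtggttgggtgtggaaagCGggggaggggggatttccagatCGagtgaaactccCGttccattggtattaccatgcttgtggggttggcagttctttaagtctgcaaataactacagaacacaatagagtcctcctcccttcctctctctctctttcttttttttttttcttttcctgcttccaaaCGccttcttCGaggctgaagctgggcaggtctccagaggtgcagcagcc

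The libraries held 902802339 calls for OCI-AML3 and 894828667 for AML5, with medians of 27 and 30 calls per nuclear CpG, and the mean level over CpGs with more than 5 reads was 67.6% and 75.2%. At these median depths a count of 3 calls, taken as the least that is detected, stands for 11.1% in OCI-AML3 and 10.0% in AML5. Of the mitochondrial calls, 0.17% in OCI-AML3 and 0.10% in AML5 were methylated. Unconverted cytosines also read as methylated, and their part in the lowest means given below was not tested. RASSF TSS windows had between 13.9 and 75.5 calls per CpG in OCI-AML3 (22.4–56.3 in AML5), and 25 of 35 were deeper in OCI-AML3. Single CpGs were compared with the two-sided Fisher's exact test, adjusted over all 24454751 nuclear CpGs with more than 5 reads in both lines. These tests and the Wilson 95% intervals given with pooled shares of calls cover read sampling of these 2 libraries, not variation between cultures, and 1 read can give calls at several CpGs. Levels of windows are means over CpGs, with no replicates, and a call means an adjusted p under 0.05. A run means at least 5 consecutive covered CpGs called in 1 direction. Every adjusted p in a run is therefore under 0.05 by definition, and the largest one describes the run without testing it. Among myeloid marker genes, the window at the first TSS was at 11.5% in both lines for SPI1, at 19.9% and 20.8% for PTPRC, and at 93.2% and 90.3% for MPO, while CD33 and CSF3R lay between 32.3% and 41.1%. Genes that mark T cells, epithelium and liver were at 75.3% and 91.5% (CD3E), 62.0% and 71.3% (EPCAM), and 72.8% and 95.1% (ALB). Expression was not analysed here, so the labelled cell type was checked only at this level.

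At the RASSF start sites, the canonical TSS groups of all 10 genes were less methylated in OCI-AML3 than in AML5, by −27.6 to −1.06 percentage points (median −4.39), although with windows of 2000 bp upstream only RASSF4 and RASSF10 were higher by 6.3 and 9.0 points, and with 1000 bp on either side RASSF3 was higher by 0.1. Over all 35 groups the median difference was −4.33 points with 32 lower, close to the −4.17 points and 85.9% lower over the 68022 TSS groups of all protein-coding genes. RASSF5 group 1 was the 1 group of 35 past 20 points lower and none was past 20 points higher, against 8.62% and 1.16% of all TSS groups. With narrower windows or each call counted once, 2 to 4 groups passed, RASSF8 groups among them. The shares over all TSS groups at these settings are not given here. RASSF8 group 3 held 10 tested CpGs in its main window and fewer in the narrower ones, below the 10 required for the shares over all genes. Of the 2680 RASSF CpGs tested in TSS windows, 329 (12.3%) were called lower and 61 (2.28%) higher in OCI-AML3, where the CpGs within 2000 bp of any protein-coding TSS gave 12.5% and 4.12% and all nuclear CpGs 14.7% and 3.86%. As a family the start sites therefore stood near the background in the median difference and in the share called lower. The share called higher was smaller, at 2.28% against 4.12%. The shares called varied between the members, and whether they vary more than in other gene sets was not tested. Both lines were under 20% in 7 of 35 groups (against 9.62% of all TSS groups), and over 80% in 15 of the 25 groups outside the canonical starts. The 7 include all 3 RASSF1 groups, whose windows share CpGs, and the 15 include overlapping windows of RASSF4 and of RASSF5, so these are not counts of separate regions. Among the 10 canonical groups, 5 were under 20% in both lines. The share of all TSS groups over 80% is not given here. The canonical windows were richer in CpGs, with an observed-to-expected CpG ratio of 0.25–0.75 (median 0.49) against 0.12–0.59 (median 0.24) for the other groups.

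Among the classical members, RASSF5 (NORE1), which is known to be transcribed from an upstream promoter and, as the RAP1-binding form RAPL of lymphocytes, from an internal one, differed most. The window of its first TSS group (chr1:206678864-206682928, TSSs at 206680864–206680928) held 173 CpGs with a mean of 15.2% in OCI-AML3 and of 42.8% in AML5, a difference of −27.6 points. Pooled over calls, 9.67% (9.17–10.2%) of 13066 calls were methylated in OCI-AML3 and 36.6% (35.6–37.5%) of 9652 in AML5. Of the 173 CpGs, 74 were called lower and 1 higher, and the window was deeper in OCI-AML3 (75.5 calls per CpG) than in AML5 (55.8). The difference was unevenly placed. Next to the TSS, from −250 to 499 bp, both lines were low, at 2.43% and 8.55% over 90 CpGs, with 17 called lower and 0 higher. Upstream, from −750 to −251 bp, the means were 4.51% in OCI-AML3 and 80.1% in AML5, and 38 of 42 CpGs were called lower. The longest run in the whole family, 37 consecutive covered CpGs over 392 bp from −744 to −353 bp, had a mean of 4.85% in OCI-AML3 and 87.6% in AML5, with no CpG above 25.0% in the former or below 29.8% in the latter (largest adjusted p 0.018, Fisher's exact test), and the RASSF5 sequence above is its end nearest the gene. Farther upstream, from −2000 to −751 bp, OCI-AML3 stood at 60.8% and AML5 at 92.4%. Downstream, from 500 to 2064 bp, the means were 49.8% and 71.4%, with 10 of 25 CpGs called lower and 1 higher. The unmethylated core around the TSS, followed outward until 3 consecutive CpGs reached 20%, spanned 1312 bp with 138 CpGs in OCI-AML3 (−663 to 648 bp) and 626 bp with 83 CpGs in AML5 (−151 to 474 bp). At the canonical starts of RASSF1, RASSF2, RASSF4, RASSF7 and RASSF9 the core was also longer in OCI-AML3. It was longer in AML5 for RASSF3 (2940 bp in OCI-AML3 and 3547 bp in AML5), RASSF6 (68 and 137 bp) and RASSF8 (1951 and 2879 bp).

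The internal start of RASSF5 behaved differently. TSS group 3 (206730493–206730889) was at 17.8% in OCI-AML3 and 22.2% in AML5, and between −500 and 999 bp its 76 CpGs had means of 0.028% and 0.61%. Past that core, from 1250 to 2396 bp, the levels were 23.6% and 79.0%, and 6 of 7 CpGs were called lower. TSS group 2 (206691721) had means of 68.6% and 80.3% with 19 of 71 CpGs called lower, and its window holds a run of 8 CpGs in intron 1 (chr1:206689951-206690090) at 35.6% and 80.7%. Groups 4 and 5 were methylated in both lines, at 87.1–87.9% in OCI-AML3 and 91.0–91.5% in AML5.

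RASSF1, which binds MST kinases and microtubules and is the member most often described as methylated in tumours, was unmethylated at its start sites in both lines. Around the first TSS group (50378411–50378261 on chromosome 3, minus strand), the 119 CpGs from −500 to 2150 bp had means of 0.30% in OCI-AML3 and 0.96% in AML5, where 0.24% (0.15–0.37%) of 7939 calls and 0.95% (0.72–1.26%) of 5050 calls were methylated. The 24 CpGs farther upstream were at 88.3% and 94.0%, with none called, so that the window means of 15.1% and 16.6% mix an unmethylated and a methylated part. The methylated side includes the TSS of ZMYND10, at −1468 bp. The internal groups, which share CpGs with the first and with each other, were at 1.34% and 2.89% (group 2, 50375719–50375664) and at 2.47% and 6.61% (group 3, 50374895). The unmethylated core was 1 stretch across all 3 groups, 5711 bp with 290 CpGs in OCI-AML3 and 4615 bp with 279 CpGs in AML5, and in both lines its upstream end was at −553 bp counted from the canonical TSS (50378267). At its downstream end a run of 9 CpGs in intron 2 (chr3:50373110-50373736) was at 11.6% in OCI-AML3 and 70.0% in AML5 (largest adjusted p 0.043, Fisher's exact test).

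**Figure D1:**
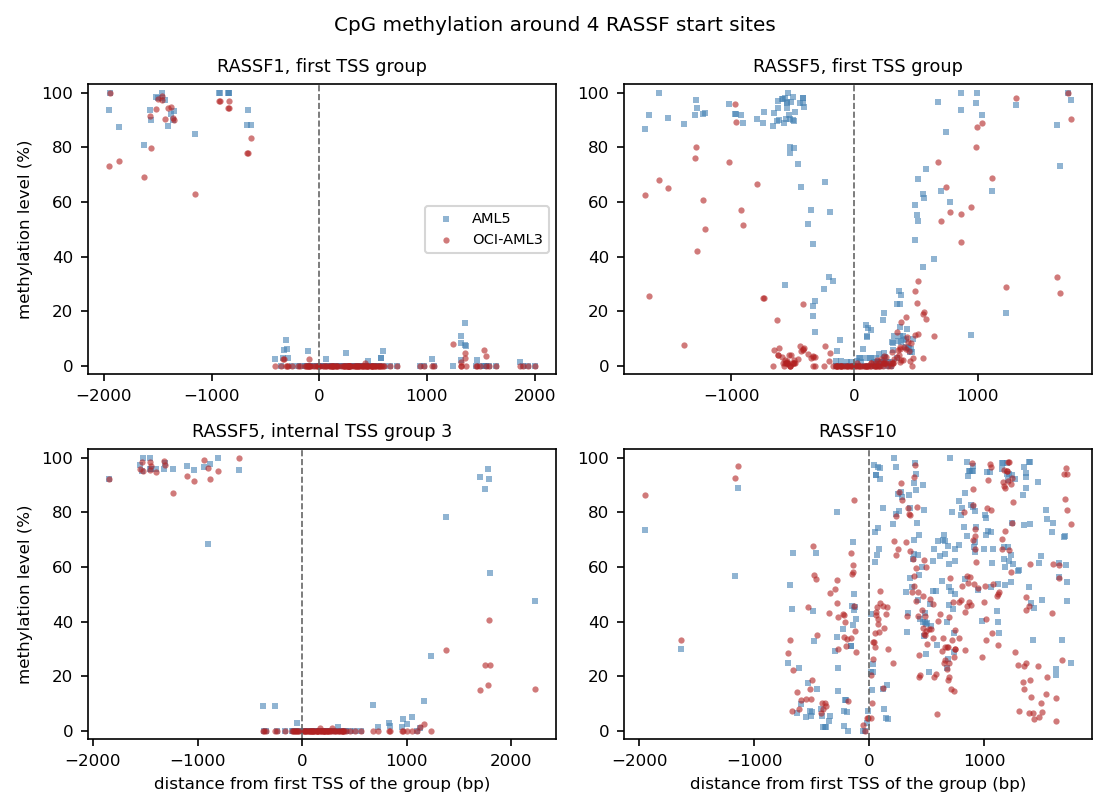
Methylation level of single CpGs (y axis, %) against distance from the first TSS of the group (x axis, bp, negative upstream on the gene's strand) for RASSF1 and RASSF5 group 1 (upper panels), RASSF5 group 3 and RASSF10 (lower panels), circles for OCI-AML3 and squares for AML5, with a dashed line at the TSS. RASSF1 and RASSF5 group 3 are near 0 around the TSS in both lines, RASSF5 group 1 parts upstream of it (4.51% against 80.1% from −750 to −251 bp), and RASSF10 spreads over the whole scale in both lines.

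RASSF2, a pro-apoptotic member that binds MST kinases, had 1 CpG-rich start on chromosome 20 (TSS 4804254, minus strand) with a window mean of 13.5% in OCI-AML3 and 16.0% in AML5. Its core from −250 to 1249 bp was at 0.67% and 0.25% over 120 CpGs, with 0 called lower and 1 higher. The upstream flank from −1000 to −251 bp was at 47.7% and 70.9%, with 3 of 13 CpGs called lower. Its internal groups were at 34.4% and 37.6% (group 2, 4795769) and at 89.7% and 94.3% (group 3). RASSF2 had no run of 5 called CpGs.

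RASSF3 was unmethylated across a broad core in both lines. At its canonical TSS (chromosome 12, 65004275), 185 CpGs from −1500 to 1249 bp had means of 0.24% in OCI-AML3 and 0.12% in AML5, and none was called in either direction. At the upstream edge the lines parted: a run of 17 CpGs from −2152 to −1901 bp (chr12:65002123-65002374) was at 45.9% and 93.7%. On the other side, from 1250 to 2027 bp, OCI-AML3 was the higher line, at 30.02% against 14.5%, with 5 of 9 CpGs called higher and 1 lower. The farther-upstream starts of longer transcripts were methylated in both lines, at 90.4% and 95% (group 1, 64900781) and at 88.5% and 92.3% (group 2). RASSF3 also held the family's one run of CpGs called higher in OCI-AML3, 8 CpGs over 65 bp inside the long transcripts (chr12:64937098-64937162), with levels of 95–100% in OCI-AML3 and 41.2–53.3% in AML5. That run was covered by 19.0 and 14.8 calls per CpG (largest adjusted p 0.028, Fisher's exact test). A lower run of the same number of CpGs lay in intron 1 (chr12:65015417-65015548), at 31.7% and 68.9%.

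RASSF4, another RAS-binding classical member, was unmethylated just past its first TSS group (chromosome 10, 45454855–45455287), at 0.12% in OCI-AML3 and 1.05% in AML5 over 69 CpGs from 0 to 749 bp. Beyond it, from 750 to 2432 bp, the levels were 6.70% and 37.1%, and 12 of 20 CpGs were called lower. Upstream, from −1000 to −501 bp, the direction was opposite, at 40.0% and 8.76%, with 2 of 5 CpGs called higher. RASSF4 had 5 runs called lower, the 2 longest in intron 1, of 11 CpGs (chr10:45459423-45459907, 30.7% and 81.8%) and of 9 CpGs (chr10:45458884-45459269, 22.1% and 84.0%), and another run of 9 CpGs starting at 45462777 was at 17.0% and 83.7%. Its other 7 TSS groups stood at 82.4–93.7% in OCI-AML3 and 79.8–95.2% in AML5, and 3 of them had a higher mean in OCI-AML3. Group 2 was higher by 2.63 points with 4 CpGs called higher and 0 lower, and groups 5 and 6 by 0.68 and 0.46 points, but when each call counted once these differences became 0.14, −0.13 and −0.63 points.

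RASSF6, which is also known to bind MST kinases, had a CpG-poor start on chromosome 4 (74486348–74486129, minus strand) that was intermediate in both lines. The window mean was 36.8% in OCI-AML3 and 50.9% in AML5 over 43 CpGs, with 14 called lower and 3 higher. Of 1566 calls 38.7% (36.3–41.1%) were methylated in OCI-AML3, and of 1326 calls 57.3% (54.6–60%) in AML5. Just past the TSS, from 0 to 249 bp, the means were 12.3% and 18.6% with 4 CpGs called lower and 3 higher. The next 4 CpGs, from 250 to 499 bp, went the other way, at 41.0% in OCI-AML3 and 14.2% in AML5, with none called singly. A run of 5 CpGs in intron 1 (chr4:74480804-74481789) was at 17.8% and 91.2%.

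Among the N-terminal members, RASSF7, which is linked to mitosis and to the stress kinase MKK7, lies head to head with LMNTD2 on chromosome 11, so its 3 overlapping windows are shared with that gene. The canonical group (560956–561547) was at 35.5% in OCI-AML3 and 40.0% in AML5 over 252 CpGs. From 250 to 999 bp past the first TSS (560404), 101 CpGs were at 0.23% and 0.25%, with none called. The core's edge differed, at 1.99% and 18.6% from 0 to 249 bp with 8 of 20 CpGs called lower, and a run of 7 CpGs there (chr11:560436-560492) was at 2.28% and 38.8%. Upstream of the first TSS the levels were 71.1% and 87.3%, with 18 of 65 CpGs called lower.

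RASSF8, a member found at cell junctions, had the canonical start with the highest CpG ratio (chromosome 12, 26111165–26111998), at 8.07% in OCI-AML3 and 9.40% in AML5 over 230 CpGs. From 0 to 1249 bp the means over 179 CpGs were 0.039% and 1.37%. From 1250 to 1999 bp OCI-AML3 was higher, at 16.3% against 1.80%, and 6 of 21 CpGs were called higher with none lower. The next 5 CpGs, from 2000 to 2249 bp, were lower in OCI-AML3, at 0.48% against 28.7%. Its other 6 TSS groups, which are CpG-poor (ratio 0.12–0.22), were at 69.1–84.3% in OCI-AML3 and 84.0–95.8% in AML5, lower by −15.2 to −7.75 points, with 10 to 33 CpGs each. RASSF8 had no run of 5 called CpGs.

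RASSF9, a protein of recycling endosomes, had the second-widest gap at a canonical start, 17.1% in OCI-AML3 and 36.99% in AML5, but over 27 CpGs only, of which 6 were called lower. Of 593 calls 17.0% (14.2–20.3%) were methylated in OCI-AML3 and of 756 calls 33.7% (30.4–37.2%) in AML5. The difference lay upstream, at 21.2% and 50.1% from −1250 to −1 bp, whereas 0 to 499 bp was at 11.3% and 7.44% with none called. Within the printed sequence 1 CpG was called, at −217 bp, where 1 of 18 calls in OCI-AML3 and 7 of 8 calls in AML5 were methylated (adjusted p 0.0009, Fisher's exact test). The upstream CpGs, at −639, −828 and −968 bp, each had no methylated call in either line among 12 to 35 calls, next to CpGs at up to 92.6%. A C-to-T difference between a line and the reference would read in the same way as an unmethylated cytosine, and its part in these values was not tested.

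RASSF10, a small gene with a coding exon inside a CpG island (chromosome 11, TSS 13030863), was methylated in part around its TSS in both lines. The window mean was 45.9% in OCI-AML3 and 56.5% in AML5 over 235 CpGs, and 46.0% (45.3–46.8%) of 16146 calls and 56.7% (55.8–57.7%) of 11069 calls were methylated. CpGs differed in both directions, with 75 called lower and 29 higher. The unmethylated core around the TSS was 81 bp with 7 CpGs in each line. Upstream, from −750 to −1 bp, OCI-AML3 was the higher line, at 31.7% against 23.3%, with 13 of 48 CpGs called higher and 1 lower. From 0 to 999 bp the order was reversed, at 45.9% and 63.0%, with 43 called lower and 3 higher. From 1000 to 1249 bp the lines stood at 73.7% and 72.5%. From 1250 to 1499 bp they were at 24.8% and 72.4%, with 20 of 21 CpGs called lower. A run of 23 CpGs in the coding part of exon 1 (chr11:13032130-13032449), whose beginning is the RASSF10 sequence above, was at 22.3% and 73.4% (largest adjusted p 0.0046, Fisher's exact test).

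**Figure D2:**
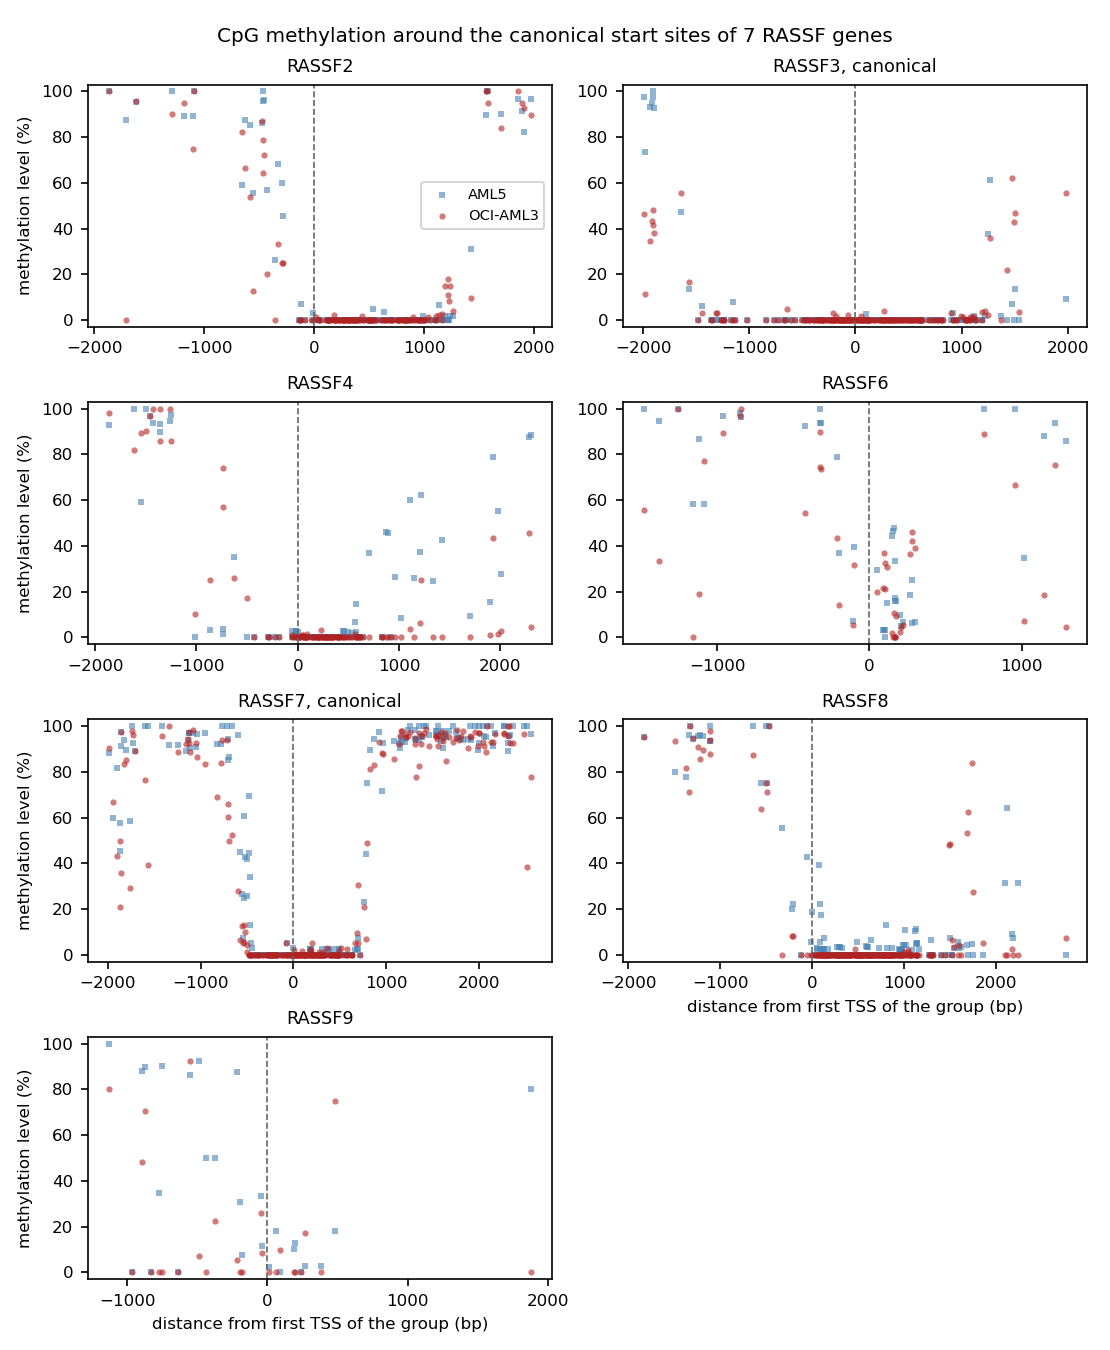
Methylation level of single CpGs (y axis, %) against distance from the first TSS of the canonical group (x axis, bp) for RASSF2, RASSF3, RASSF4, RASSF6, RASSF7, RASSF8 and RASSF9, circles for OCI-AML3 and squares for AML5, with a dashed line at the first TSS. RASSF2, RASSF3, RASSF4, RASSF7 and RASSF8 show a core near 0 in both lines with differences at its edges, while RASSF6 and RASSF9 have few CpGs and wide scatter.

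In gene bodies, all 9 members with CpGs left were lower in OCI-AML3 (RASSF7 had none left), with a median difference of −9.16 points against −4.85 points and 92.4% lower over the gene bodies of all protein-coding genes. Of 4569 CpGs tested, 546 (12.0%) were called lower and 63 (1.38%) higher, where gene-body CpGs of all protein-coding genes gave 13.4% and 2.95%. RASSF9 was the 1 gene body of 9 past 20 points lower, none was past 20 points higher, and the background was 7.69% and 0.509%. Its body held 177 CpGs with means of 53.0% and 74.8%, of which 52 were called lower and 1 higher. A run of 7 CpGs in its intron 1 (chr12:86220689-86223019) was at 12.1% and 76.6%. RASSF6 followed with 71.9% and 87.5% (53 of 226 CpGs called lower, 2 higher), and RASSF4 with 63.6% and 77.4% (64 of 254 lower, 4 higher). RASSF1 was at 83.5% and 93.8%, and RASSF8 at 82.3% and 91.5%. The bodies of RASSF2 (84.6% and 89.2%), RASSF3 (84.5% and 90.0%) and RASSF5 (81.7% and 87.3%) were highly methylated in both lines and differed by at most −5.57 points between the lines. RASSF10 kept 11 CpGs, at 33.2% and 40.9%. Over the whole annotated gene, CpGs near its TSSs included, the difference was −4.74 points for RASSF1, −6.77 for RASSF4 and −15.7 for RASSF10, against −10.3, −13.8 and −7.78 in the bodies alone.

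**Figure D3:**
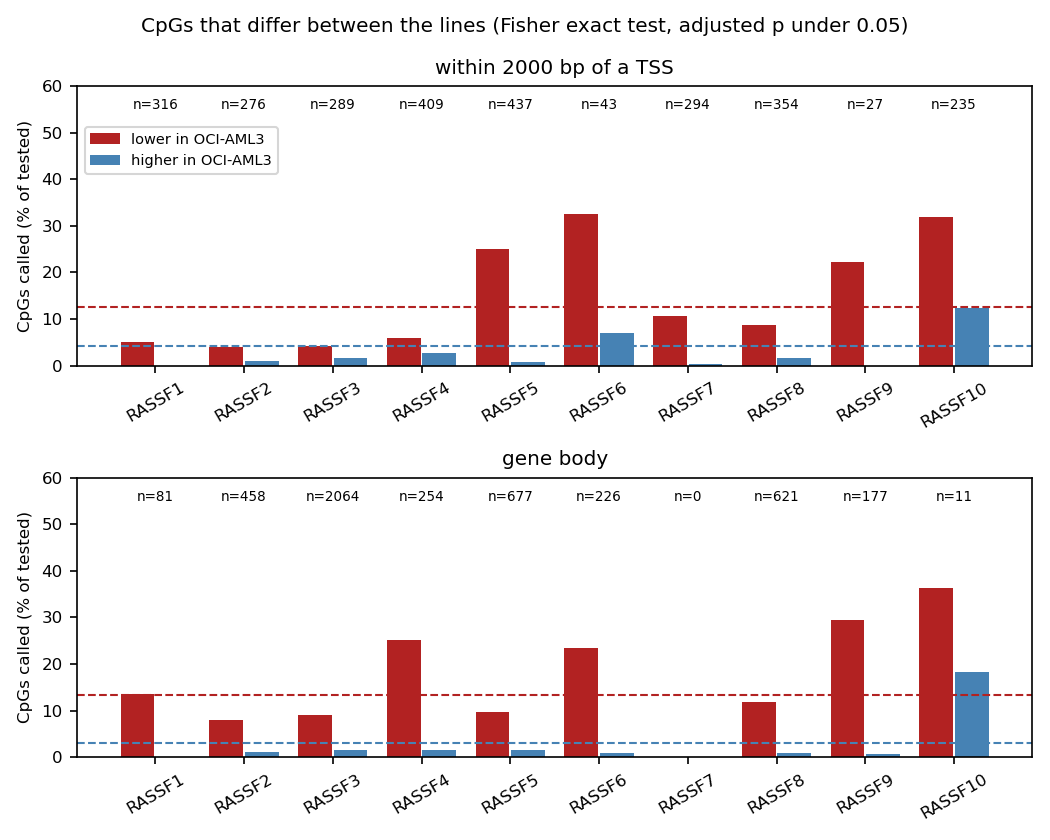
Share of tested CpGs (y axis, %) called lower (first bar) or higher (second bar) in OCI-AML3 for each RASSF gene (x axis), within 2000 bp of a TSS (upper panel) and in the gene body (lower panel), with the number of CpGs tested above the bars and dashed lines at the shares over all protein-coding genes. RASSF5 (24.9%), RASSF6 (32.6%), RASSF9 (22.2%) and RASSF10 (31.9%) stand above the 12.5% line near their TSSs, and the other 6 genes, from RASSF2 (3.99%) to RASSF7 (10.5%), stand below it. On the higher side RASSF6 (6.98%) and RASSF10 (12.3%) exceed the 4.12% line.

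Runs of at least 5 consecutive covered CpGs called in 1 direction numbered 21 lower and 1 higher in the family. They held 202 of the 7249 CpGs tested (2.79%) on the lower side and 8 (0.11%) on the higher side, where the CpGs near or inside all protein-coding genes gave 3.20% and 0.668%. RASSF5 had 6 of the lower runs, RASSF3 and RASSF4 5 each, and RASSF1, RASSF6, RASSF7, RASSF9 and RASSF10 1 each.

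The genes that work with RASSF proteins were taken from a list of 34, namely the Hippo cassette, RAS and RAP GTPases and binding partners, each at the window of its most upstream TSS. The median difference was −5.29 points with 30 of 34 lower, against −4.68 points and 84.7% lower over 19667 such windows. Past 20 points, 4 were lower and 0 higher in OCI-AML3, where all protein-coding genes gave 8.61% and 1.79%. Among 19 Hippo genes, TEAD1, a DNA-binding partner of YAP1, was at 14.3% in OCI-AML3 and 48.1% in AML5, and VGLL4, a competitor for TEAD binding, at 64.4% and 85.5%. Among 8 GTPases, HRAS was at 11.4% and 34.96% and its relative RRAS2 at 70.7% and 92.2%. None of the 7 binding partners passed, and the 2 nearest, named after their values were seen, were higher in OCI-AML3: ITGAL, the integrin chain that RAPL acts on, at 81.8% and 61.9%, and PAWR at 51.3% and 32.7%. The genes of the MST kinases, named for their part in RASSF binding and not for their difference, were at 19.0% and 22.1% (STK3) and at 12.6% and 20.9% (STK4).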

How the data were processed

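Genomic DNA of OCI-AML3 and AML5 was bisulfite-converted and sequenced paired-end. Alignment to hg19 and methylation calling were done by the authors with Bismark, and the submitters' processing notes also name Bowtie 0.12.8. For each CpG the deposited tables give 2 counts, methylated and unmethylated calls, neither smoothed nor normalised. Whether duplicate reads were removed is not given in the sources used here. Positions in the files were checked against the GRCh37 genome and are the G of the CG on the plus strand for 3628 of 3628 CpGs of the RASSF TSS windows.

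Levels were computed for CpGs with more than 5 reads in both lines. Two-sided Fisher's exact tests with Benjamini-Hochberg adjustment were run on the counts and first tested on simulated data. Gene models came from GENCODE 44 lifted to GRCh37, whereas the study used an earlier release. With 1 library per line, windows and gene bodies were compared by value, without a test between lines, and cultures were not replicated. All 10 RASSF genes are named. Other genes are named where the window differed by over 20 points, apart from markers, neighbouring genes, the 2 genes nearest to that threshold and the MST kinase genes. The 2 longest runs per gene are described, with ties and a few further runs. The members and gene lists were chosen with earlier results of these data known, and the distance segments, the limits of unmethylated cores and the printed sequences were chosen after the values were seen. Alternatives covered the minimum reads, the window, the transcripts, the threshold, the extent of the gene body and counting each call once. Python 3.11.15 was used with samtools 1.23.1, matplotlib 3.10.9, numba 0.67.0, pandas 2.3.3, scipy 1.17.1 and numpy 2.4.6. Not every gene of the lists is reported here.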

Additional observations from a re-analysis of the deposited data

How the results depend on the processing

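Of the family-wide and list counts under other settings, 34 stayed within 1.5 times the main value and 12 did not. Of the differences of single windows and gene bodies, 125 moved by less than the read-sampling interval and 68 by more. With windows of 1000 bp the calls lower near TSSs were 198 and those higher 39 (2047 CpGs tested), and with 2000 bp upstream only they were 151 and 30 (1488 tested). Fewer CpGs entered these counts, and the shares called lower and higher were also below those of the main windows. In gene bodies the calls higher numbered 40 at a threshold of 0.01 (4569 tested) and 108 over the whole annotated gene (6874 tested). At the threshold of 0.01, 2.88% of all nuclear CpGs were called higher. TSS groups lower by over 20 points numbered 2 when each call counted once (RASSF8 group 2 joined), 3 with 1000 bp (RASSF8 groups 3 and 5) and 4 upstream only (RASSF5, RASSF6, RASSF8 group 3 and RASSF9). RASSF8 group 3 had fewer than 10 CpGs in both narrower windows. Genes of the list of 34 higher by over 20 points numbered 2 with 1000 bp, 1 upstream only and 1 when each call counted once. Apart from the 0.01 threshold, shares over all protein-coding genes at these settings are not given here. RASSF5 group 1 stayed between −48.2 and −26.9 points and the RASSF9 body between −21.8 and −20.9. Upstream only, RASSF10 turned from −10.6 to 9.0 points and RASSF4 group 1 from −4.33 to 6.3, and at 1000 bp RASSF3 group 3 turned from −1.06 to 0.1 and RASSF2 group 2 from −3.22 to 1.6. RASSF4 groups 5 and 6 changed sign when each call counted once. No paired analysis was possible because each line had 1 library. At a CpG of median depth, levels under 11.1% in OCI-AML3 and 10.0% in AML5 lay below the 3 calls taken as the least that is detected. Every methylated call still entered the levels, means and tests.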
